A study of Mus musculus with 35 samples.

Results

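Lungs of mice that had inhaled 20 ppm styrene were set against lungs of mice that had inhaled 10 ppm, across the transcriptome. The comparison rests on 10 of the 35 arrays of the series, 5 at each of these doses, and on 17097 genes. Members were chosen by the labelled dose alone: all non-control probe sets that map to a single gene, with the brightest probe set standing for each gene. All mice were adult wild-type males of the C57Bl/6 strain from Taconic, housed singly in wire-mesh cages during 1 exposure of 6 h to styrene or to air. Lungs were taken the next morning, and total RNA of the whole organ was hybridised to Affymetrix HT MG-430 PM arrays. The other dose groups were 0 (air only), 1, 5, 40 and 120 ppm, with 5 arrays each. The labels name no genetic change or second agent in any group. Values are log2 signals as the authors normalised them, so a difference of 1 is a doubling. In RNA of a whole organ, fewer cells of a type and less RNA per cell cannot be told apart.

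Styrene is a volatile aromatic hydrocarbon. Club cells, the secretory cells that line the small airways, oxidise it with cytochrome P450 enzymes, of which Cyp2f2 is the best known in mouse lung, and the oxidised products are reactive towards proteins. Cells answer damaged or unfolded proteins with chaperones: the heat shock factor raises cytosolic chaperones such as the HSP70 and HSP90 families, and the unfolded protein response raises those of the endoplasmic reticulum. Airway epithelium can also answer injury with mucus, which goblet cells secrete, and with eotaxins, chemokines that attract eosinophils.

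The tissue label fitted its markers at both doses. The surfactant gene Sftpc had a mean of 13.87 at 10 ppm and 13.84 at 20 ppm, the club cell gene Scgb1a1 13.85 and 13.81, and the alveolar type 1 marker Hopx 13.07 and 13.22. Nonspecific-hybridisation controls gave each array a floor, taken as its highest such control, which lay between 5.69 and 6.43 on these 10 arrays, and 7841 genes (45.9%) had no array above it. Of 9 summaries of array quality (signal quartiles, spike-in, hybridisation and nonspecific controls, and 3' minus 5' control differences), none separated the doses: the smallest two-sided exact permutation p was 0.135 (5 against 5, smallest possible 0.00794; Benjamini-Hochberg 0.968). The 120 ppm arrays stood apart in spread. The median gene had an SD of 0.275 among them, against 0.141 to 0.186 at the other doses, and these arrays enter the shared estimate of the spread, so counts are also given without them. The 120 ppm arrays also differed in signal level and controls. Their upper quartile was 6.32 to 6.77, against 6.90 to 6.99 at the other doses. Their poly-A controls read 7.24 to 8.08, against 5.66 to 6.48. Their floor was 6.71 to 7.36, against at most 6.43. On 20 ppm array 2, markers of hepatocytes were high: Alb read 10.72 there and 4.79 to 5.50 on the other 4 arrays at 20 ppm. Source names number the biological replicates 1 to 5 within each dose and titles give an animal number, of which 1 occurs at both 1 ppm and 5 ppm; p-values measure the spread between these samples.

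Few genes passed the test between 10 ppm and 20 ppm. The chaperone genes Hsph1, Sdf2l1 and Serpinh1, the eotaxin Ccl24 and the mucous cell protein Clca1 were lower at 20 ppm. The airway protease Prss22, the crosslinking enzyme Tgm1, the tight junction protein Cgn and the cold-inducible RNA-binding protein Cirbp were higher. In a limma fit of all 35 arrays with 1 mean per dose, 11 genes rose and 8 fell at a Benjamini-Hochberg adjusted p under 0.05, 19 of 17097 or 0.111% (0.0643% higher and 0.0468% lower). Without the 120 ppm arrays the same comparison called 72 genes, 44 higher and 28 lower, and all 19 were among them. Leaving out single arrays gave between 5 and 37 genes, and each array other than 20 ppm array 2 moved the count by over 1.5 times. By comparison, 2016 genes (11.8%) passed between 10 ppm and 0 ppm, 2255 (13.2%) between 20 ppm and 0 ppm and 794 (4.64%) between 10 ppm and 5 ppm by limma, comparisons that share arrays with this one.

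A p that misses the threshold does not show that doses act alike, so intervals were counted. The 95% interval of the difference lay within 1.5-fold in either direction for 15205 genes (88.9%) and within 2-fold for 16833 (98.5%). These counts run over all 17097 genes, of which 7841 (45.9%) had no array above the floor. For those genes a narrow interval does not bound a difference in RNA, and genes above the floor were not counted apart. The median difference over all genes was 0.01 and the median half-width of the interval 0.25. The means of 33 genes differed by over 1 on the log2 scale. The 5 arrays at 20 ppm lay wholly outside the 5 at 10 ppm for 459 genes (2.68%), 278 of them higher (1.63%) and 181 lower (1.06%), and at an unadjusted p under 0.05 there were 1070 (6.26%; 642 higher, 428 lower). Of the 19 genes past the threshold, 18 did not overlap between doses; the exception was Bex4.

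**Figure D1:**
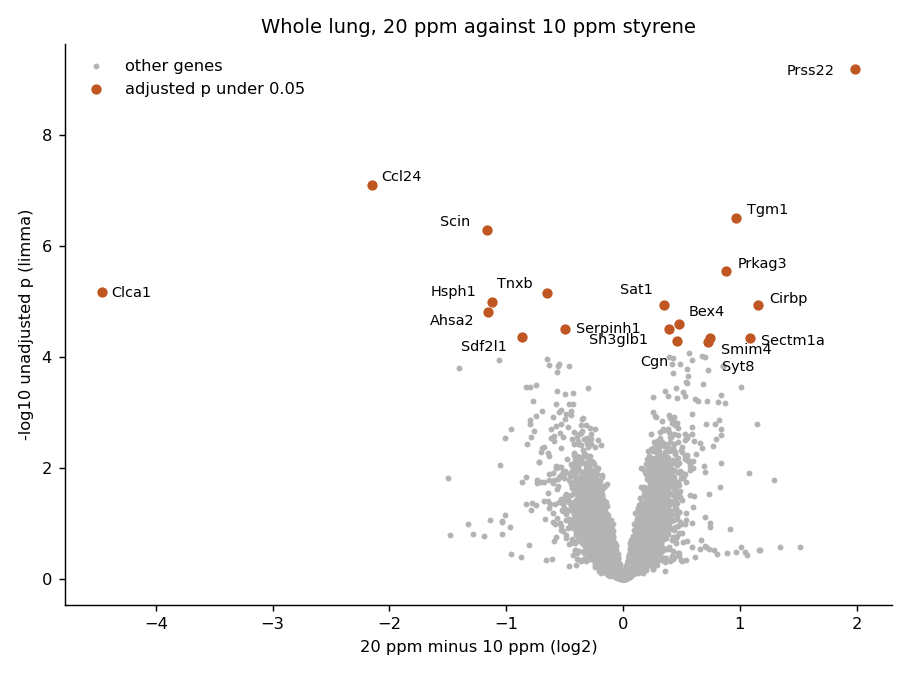
Difference between doses (20 ppm minus 10 ppm, log2) against -log10 of the unadjusted limma p for 17097 genes, with the 19 genes past an adjusted p of 0.05 in orange. Clca1 stands alone at -4.46, Ccl24 at -2.15 and Prss22 at 1.98, and the bulk of genes lies close to 0.

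Prss22, a serine protease of the airways, gave the smallest p of all genes. Its log2 signal was 4.74, 5.64, 5.39, 5.73 and 4.77 on the arrays at 10 ppm and 7.37, 7.10, 7.25, 7.07 and 7.41 at 20 ppm. The groups lay far apart, and every array at 10 ppm was below its floor. Prss22 rose at least 2.31-fold, with the 10 ppm arrays set to their floor; the fitted difference of 1.98 (SE 0.23, limma adjusted p = 1.14e-05) rests on 10 ppm signals below it and is no measure of size. This call held under each of the 27 alternative settings tried, with differences between 1.85 and 2.10.

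Tgm1, which crosslinks proteins into the tough envelope of squamous cells, read 5.85, 6.10, 5.67, 6.17 and 6.14 at 10 ppm and 7.17, 6.65, 6.94, 7.04 and 6.96 at 20 ppm. No array of one dose reached the other dose, and 3 of 5 arrays at 10 ppm were above the floor. It rose by 0.97 (SE 0.15, adjusted p = 0.00179), a 1.96-fold difference. Both genes stand in a list of 18 measured cornified envelope and airway serine protease genes, drawn up after these values were known, in which 2 rose, 0 fell and the median difference was 0.06 against 0.01 over all genes. The list did not move as a block. Prss23, another secreted serine protease, differed by 0.43 (SE 0.10, adjusted p = 0.0825; 0.0215 by limma without the 120 ppm arrays) without overlap, and the small proline-rich envelope protein Sprr2a1 by -1.41 (SE 0.33, adjusted p = 0.0734).

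Cgn encodes cingulin, a protein of the inner face of tight junctions, the seals between epithelial cells. It read 7.65, 7.88, 7.96, 8.04 and 7.78 at 10 ppm and 8.15, 8.12, 8.51, 8.36 and 8.48 at 20 ppm. The 5 values at 20 ppm were all above those at 10 ppm, and Cgn rose by 0.46 (SE 0.10, adjusted p = 0.0478). Of 12 measured tight junction genes, again a list drawn up with the values known, 1 rose and 0 fell; 3 did not overlap between doses, all higher (Cgn, Marveld2 and Ocln; 1.63% of all genes did so), with a list median of 0.05. Marveld2, tricellulin, differed by 0.39 (SE 0.14, adjusted p = 0.542; 0.0382 by limma without the 120 ppm arrays). Cldn4, a claudin of the seal itself, differed by 0.84 (SE 0.26, adjusted p = 0.337), with overlapping groups. For 9 of the 12 the interval lay within 1.5-fold. Because the list was drawn up with the values known, its counts are no test of tight junction genes as a group.

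Sectm1a and Syt8 were dim at 10 ppm. Sectm1a, a secreted and membrane-bound protein, read 4.56, 5.65, 5.45, 5.51 and 4.97 at 10 ppm, all below the floor, and 6.40, 6.33, 6.27, 6.59 and 6.01 at 20 ppm, 3 of them above it. It rose at least 1.22-fold (adjusted p = 0.0449; fitted difference 1.09, SE 0.23). Syt8, of the synaptotagmin family of vesicle proteins, rose (limma adjusted p = 0.0478, fitted difference 0.72, SE 0.16), with 2 of 5 arrays at 20 ppm above the floor. Its mean at 20 ppm, 6.084, lay under the mean floor of those arrays, 6.095, so no size is given. The calls of Sectm1a and Syt8 were both lost when any of 9 of the 10 arrays was left out.

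Cirbp, an RNA-binding protein that cells make more of in the cold, was higher at 20 ppm. It read 5.96, 6.39, 6.98, 6.803 and 7.18 at 10 ppm and 7.90, 7.58, 7.56, 7.88 and 8.17 at 20 ppm. The lowest values were those of 10 ppm arrays 1 and 2, and no array overlapped. Cirbp rose by 1.15 (SE 0.22, adjusted p = 0.0200), 2.23-fold. Without those 2 arrays the difference was 0.83 (adjusted p = 0.685), and leaving out 10 ppm array 1 or 2, or 20 ppm array 1, 4 or 5, also ended the call. Rbm3, the other RNA-binding protein of this kind on the list, differed by -0.30 (95% interval -0.83 to 0.24).

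The remaining genes that rose have varied roles. Prkag3, a regulatory subunit of the energy sensor AMP-activated kinase, read 5.39, 5.69, 5.71, 5.51 and 5.30 at 10 ppm, all under the floor, and 6.62, 6.02, 6.49, 6.47 and 6.42 at 20 ppm. It rose at least 1.29-fold (adjusted p = 0.00987; fitted difference 0.88, SE 0.16), with no overlap; 10 ppm signals below the floor set no size for these 3 genes. Sat1, which acetylates polyamines, showed the tightest groups: 10.56, 10.52, 10.54, 10.58 and 10.47 against 10.88, 10.84, 10.84, 10.996 and 10.84, a rise of 0.35 (SE 0.07, adjusted p = 0.0200). Sh3glb1, a membrane-bending protein of autophagy and mitochondria, rose by 0.39 (SE 0.08, adjusted p = 0.0390), and a second probe set of the gene differed by 0.34. Smim4, a small membrane protein, rose by 0.75 (SE 0.16, adjusted p = 0.0449), with a range of 7.80 to 8.31 at 10 ppm and 8.43 to 9.04 at 20 ppm. Bex4 rose by 0.48 (SE 0.10, adjusted p = 0.0356); its highest array at 10 ppm (8.606) lay just above its lowest at 20 ppm (8.603).

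**Figure D2:**
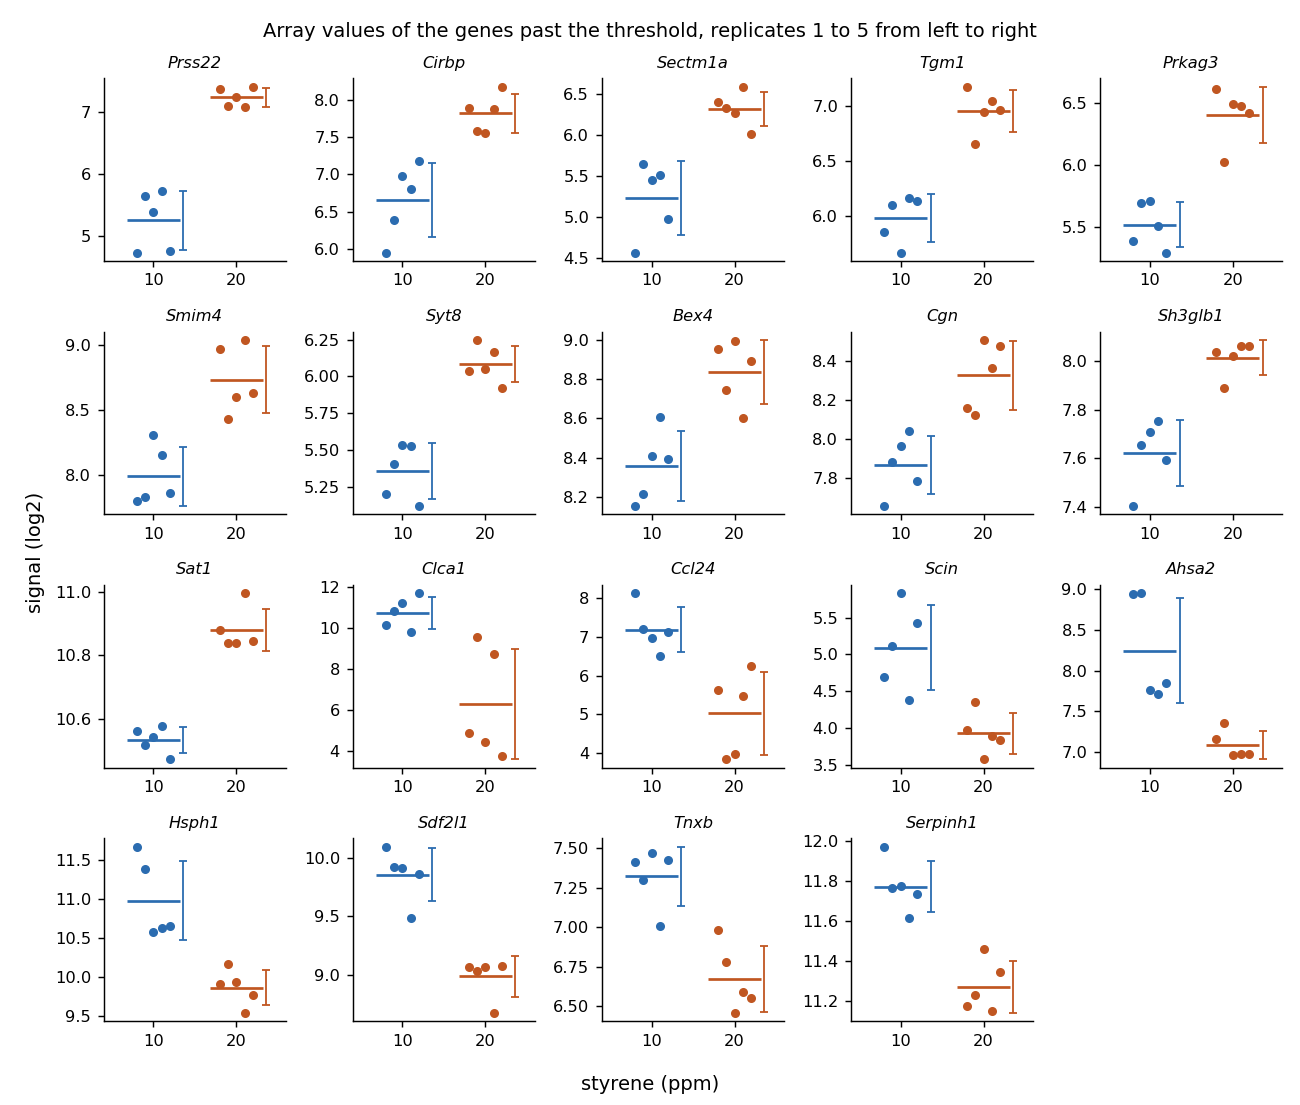
Log2 signal of each array for the 19 genes past the threshold, 10 ppm in blue and 20 ppm in orange, with replicates 1 to 5 from left to right, the mean as a line and 1 SD as a bar (n = 5); each panel has its own axis. Apart from Bex4 no gene overlaps between doses, while Clca1 splits at 20 ppm, with arrays 2 and 4 at 9.59 and 8.75 and the others at 3.77 to 4.91.

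Among the genes that fell were Hsph1, Ahsa2, Serpinh1 and Sdf2l1, which encode chaperones or their partners. With 1 of the 10 arrays left out at a time, their calls held in 4, 4, 2 and 1 of 10 fits, in that order. The share of chaperone genes over all genes was not counted. Hsph1, a large HSP70-like protein that recharges HSP70, read 11.67, 11.39, 10.58, 10.62 and 10.65 at 10 ppm and 9.91, 10.17, 9.93, 9.54 and 9.76 at 20 ppm. The groups did not overlap, and 10 ppm arrays 1 and 2 were the highest. Hsph1 fell by 1.12 (SE 0.21, adjusted p = 0.0200), 2.17-fold. Of 12 listed heat shock genes 9 were measured; 1 fell, 0 rose, and all 9 differences were negative, with a median of -0.49 against 0.01 over all genes. Besides Hsph1, the small heat shock protein Hspb1 and the mitochondrial co-chaperonin Hspe1 did not overlap, 3 of 9 with 1.06% of all genes lower in this way.

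Hspb1 read 12.66, 12.35, 12.19, 12.14 and 12.12 at 10 ppm and 11.72, 11.59, 11.92, 11.43 and 11.97 at 20 ppm, a difference of -0.57 (SE 0.14, adjusted p = 0.136). At 10 ppm these signals pass 12, close to the brightest on the arrays, where differences can be compressed. Hspe1 ranged from 10.90 to 11.31 at 10 ppm and from 10.41 to 10.66 at 20 ppm, a difference of -0.44 (SE 0.12, adjusted p = 0.220). The inducible HSP70 gene Hspa1b differed by -0.20, with a wide interval of -1.26 to 0.85, and the constitutive Hspa8 by -0.12 (interval -0.35 to 0.11). Hsp90aa1, the inducible HSP90, differed by -0.64 (interval -1.28 to 0.00).

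The upstream sequences of the 3 heat shock genes whose doses did not overlap are shown because each holds paired half-sites of the heat shock element, the letters that the heat shock factor is known to read. They are the 150 bases before the start of transcription in RefSeq on build GRCm38.p6, written 5' to 3' on the strand of the gene, with each match to GAANNTTC or TTCNNGAA, both strands, in capitals. Hsph1 lies at chr5:149636316-149636465 (minus strand), Hspb1 at chr5:135887769-135887918 (plus strand) and Hspe1 at chr1:55087998-55088147 (plus strand).
Hsph1: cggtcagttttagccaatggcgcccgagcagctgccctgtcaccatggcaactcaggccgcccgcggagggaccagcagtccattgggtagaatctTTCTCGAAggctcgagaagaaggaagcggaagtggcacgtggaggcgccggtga
Hspb1: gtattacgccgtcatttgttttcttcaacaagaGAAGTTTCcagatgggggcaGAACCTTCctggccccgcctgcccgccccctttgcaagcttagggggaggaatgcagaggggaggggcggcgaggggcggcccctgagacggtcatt
Hspe1: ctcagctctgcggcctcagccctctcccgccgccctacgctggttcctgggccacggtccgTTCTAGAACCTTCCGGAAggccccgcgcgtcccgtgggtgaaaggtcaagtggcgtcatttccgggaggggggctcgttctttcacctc
Hsph1 held 1 match, Hspb1 2 and Hspe1 3, the last overlapping each other in 1 run. Of all 32851 windows of 150 bases before a start, 7.73% held a match. In the full 300-base windows, 250 bases before to 50 after the start, 17% of 27025 genes held a match, as did 6 of the 7 heat shock genes with an entry (all but Dnajb1), 4 of 14 co-chaperone genes, 1 of 20 unfolded protein response and integrated stress genes, and 2 of 15 genes past the threshold (Hsph1 and Smim4). A match is a description of the letters, not a measured binding site.

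A list of 16 measured co-chaperones also holds the collagen chaperone Serpinh1 and was drawn up with the values known. In it 2 fell (Ahsa2 and Serpinh1), 0 rose, 13 differences were negative and the median was -0.37. Without overlap 6 were lower and 1 was higher, against 1.06% and 1.63% of all genes. As the values were known when the list was made, these counts are no test of co-chaperones as a group. Ahsa2, an activator of the HSP90 ATPase, read 8.95, 8.95, 7.76, 7.71 and 7.85 at 10 ppm and 7.16, 7.35, 6.96, 6.97 and 6.97 at 20 ppm. Arrays 1 and 2 at 10 ppm again stood above the other 3, none of which reached the 20 ppm values. Ahsa2 fell by 1.16 (SE 0.23, adjusted p = 0.0242). Serpinh1 ranged from 11.61 to 11.97 at 10 ppm and from 11.15 to 11.46 at 20 ppm, and fell by 0.50 (SE 0.10, adjusted p = 0.0390), with a second probe set at -0.67. Ahsa1, the close relative of Ahsa2, differed by -0.56 (SE 0.13, adjusted p = 0.0719) and Stip1, which hands clients from HSP70 to HSP90, by -0.74 (SE 0.19, adjusted p = 0.123), both without overlap; both passed in the fit without the 120 ppm arrays (limma adjusted p = 0.0272 and 0.0464).

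The size of the chaperone difference rested in part on 10 ppm arrays 1 and 2. The mean of the 9 heat shock genes was 11.60 and 11.36 on these arrays, 10.57 to 10.78 on the other 3 at 10 ppm, and 10.39 to 10.60 at 20 ppm. Without both arrays Hsph1 differed by -0.75 and Ahsa2 by -0.69 (limma adjusted p = 0.685 and 0.875), 7 of the 9 heat shock differences were negative and their median was -0.20. Leaving out 10 ppm array 1 or 2 alone, or 20 ppm array 1, 3, 4 or 5, also ended both calls (limma adjusted p 0.0505 to 0.199). Fitted on the 10 arrays alone, the calls of Hsph1, Ahsa2 and Serpinh1 were lost as well. Without 10 ppm arrays 1 and 2 the median of the co-chaperone list went from -0.37 to -0.15.

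Of the chaperones of the endoplasmic reticulum Sdf2l1 passed. Sdf2l1, a partner of the reticulum's HSP70, read 10.09, 9.92, 9.91, 9.48 and 9.86 at 10 ppm and 9.07, 9.04, 9.07, 8.68 and 9.08 at 20 ppm. The groups did not overlap, and Sdf2l1 fell by 0.87 (SE 0.18, adjusted p = 0.0449). Of 21 genes of the unfolded protein and integrated stress response, 1 fell, 0 rose, 16 differences were negative and the median was -0.25; 6 did not overlap, all lower (Sdf2l1, Creld2, Calr, Manf, Pdia6 and Pdia4), against 1.06% of all genes. Pdia4, a disulfide isomerase, differed by -0.41 (SE 0.22, adjusted p = 0.859; 0.0240 by limma without the 120 ppm arrays). Creld2, a secreted target of this response, read 10.52, 10.45, 10.33, 10.40 and 10.48 against 9.86, 9.96, 9.92, 9.63 and 9.94, a difference of -0.58 (SE 0.15, adjusted p = 0.174). Manf, another secreted target, stood at 11.48 to 11.56 against 11.11 to 11.28, a difference of -0.33 (SE 0.13). The stress transcription factor Atf3 pointed the other way, at 0.84 (SE 0.30, adjusted p = 0.513), and Atf4 differed by 0.05 (interval -0.19 to 0.29). Without 10 ppm arrays 1 and 2 the list median was -0.17 and 17 of 21 differences were negative.

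**Figure D3:**
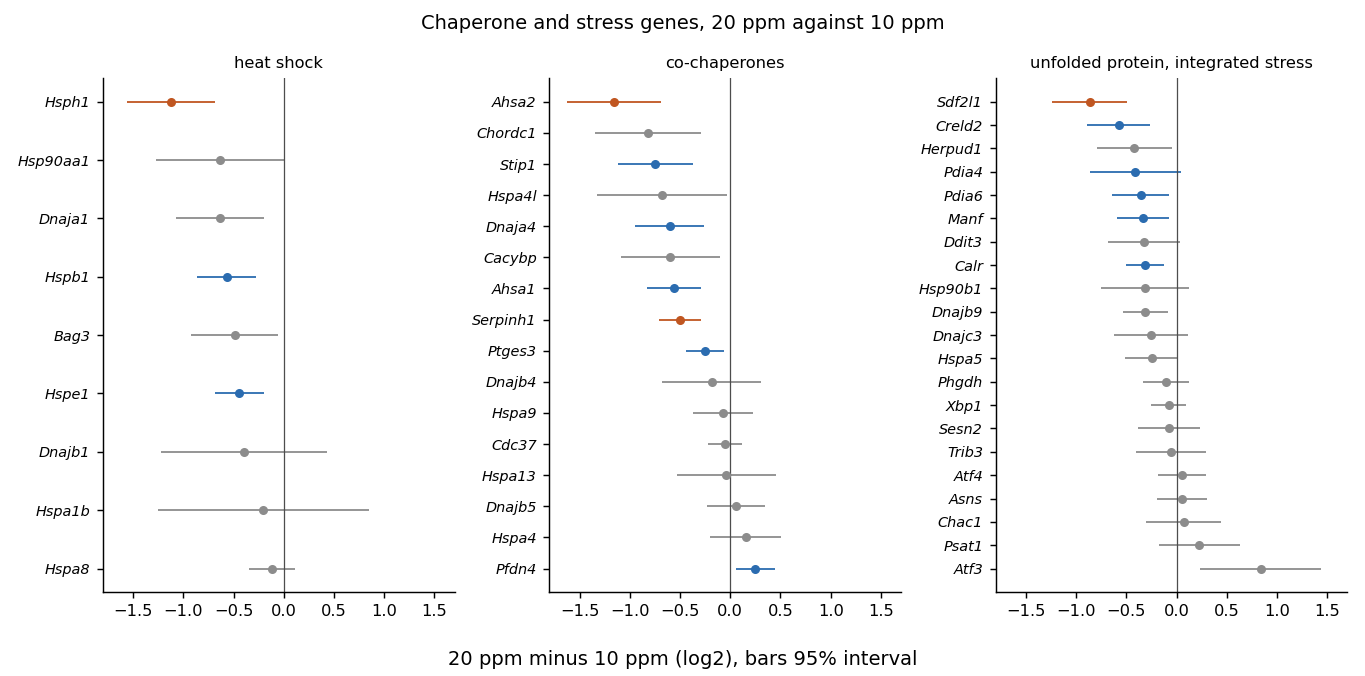
Differences (20 ppm minus 10 ppm, log2) with 95% intervals for the measured heat shock genes, co-chaperones and genes of the unfolded protein and integrated stress response; orange marks genes past the threshold, blue genes whose doses do not overlap, grey the rest. Of the 9 heat shock genes none lies above 0, and Atf3 (0.84) is the highest of the stress genes.

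Clca1, a protein that goblet cells secrete with mucus, showed the largest difference of all genes and the least even one. It read 10.17, 10.85, 11.22, 9.80 and 11.69 at 10 ppm and 4.91, 9.59, 4.43, 8.75 and 3.77 at 20 ppm. At 20 ppm arrays 2 and 4 lay nearest the 10 ppm range, and the other 3 were below the floor. Clca1 fell by 4.46 (SE 0.83, adjusted p = 0.0173), or by 3.32 with each array raised to its floor, a value added after the data were seen, and a second, dim probe set differed by -1.02. Leaving out any of 6 arrays, or the arrays of all other doses, ended the call (10 ppm arrays 2, 3 or 5; 20 ppm arrays 1, 3 or 5), with adjusted p up to 0.117. Without 20 ppm arrays 2 and 4 the difference was -6.38 (adjusted p = 6.31e-06).

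Agr2, Muc5b and the mean over the mucus genes showed the same split at 20 ppm. Agr2, a reticulum protein needed to fold mucins, read 7.22, 7.72, 8.78, 8.16 and 8.79 at 10 ppm and 6.67, 8.37, 5.46, 7.92 and 4.76 at 20 ppm. Its arrays 2 and 4 at 20 ppm lay within the 10 ppm range, and the difference was -1.50 (SE 0.58, adjusted p = 0.597). Muc5b, a gel-forming mucin, read 8.06, 9.46, 7.05, 8.99 and 6.14 at 20 ppm against 8.21 to 9.71 at 10 ppm, a difference of -1.14 (interval -2.44 to 0.16). Of 12 mucus and goblet cell genes 1 fell and 0 rose; all 12 differences were negative, with a median of -0.79. The mean over the list was 7.81 and 7.41 on 20 ppm arrays 2 and 4 and 5.45 to 6.51 on the other 3, against 6.99 to 8.28 at 10 ppm. Other lists were high on the same arrays 2 and 4 at 20 ppm: the mean over 8 club cell markers was 11.31 and 11.19 there and 10.71 to 10.93 on the other 3 (11.12 to 11.39 at 10 ppm), over 8 ciliated cell markers 7.70 and 7.51 against 7.09 to 7.14 (7.26 to 7.53 at 10 ppm). It was 8.61 and 8.62 against 8.09 to 8.28 over 7 smooth muscle markers (8.30 to 8.88 at 10 ppm) and 7.24 and 7.47 against 6.17 to 6.61 over 9 cardiac muscle markers (5.61 to 8.10 at 10 ppm). Array 2 is also the one with hepatocyte markers; the part of all these markers in the result was not tested, and without array 2 Clca1 differed by -5.28 (adjusted p = 9.01e-04).

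Ccl24, an eotaxin, read 8.11, 7.21, 6.97, 6.50 and 7.11 at 10 ppm and 5.62, 3.85, 3.97, 5.48 and 6.26 at 20 ppm, where 1 of 5 arrays was above the floor. The groups did not overlap, and Ccl24 fell by 2.15 (SE 0.31, adjusted p = 6.82e-04); with each array raised to its floor, as for Clca1, the difference was -1.03. The call held with each of the 10 arrays left out in turn and was lost when only the 10 arrays were fitted, with or without the replicate block (limma adjusted p up to 0.133). Its arrays did not follow Clca1: at 20 ppm array 5 was the highest for Ccl24 and the lowest for Clca1. The other eotaxin, Ccl11, read 6.29, 6.67, 6.20, 5.78 and 6.47 against 5.60, 4.99, 4.30, 5.87 and 5.36, a difference of -1.06 (SE 0.24, adjusted p = 0.0707), and passed without the 120 ppm arrays (limma adjusted p = 0.0445). Ccl11 overlapped between doses (5.78 at 10 ppm, 5.87 at 20 ppm). Its mean at 20 ppm, 5.22, lay under the mean floor of 6.06, so its difference is no firm size. The eotaxin receptor gene Ccr3 was below the floor on all 10 arrays.

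Of 12 type 2 inflammation genes 1 fell (Ccl24), 0 rose and the median was -0.12. Retnla, a secreted protein of alternatively activated macrophages and airway epithelium, read 13.01, 13.09, 13.09, 12.98 and 13.11 at 10 ppm and 12.45, 12.55, 12.19, 12.60 and 12.64 at 20 ppm. Its groups did not overlap; the difference was -0.57 (SE 0.17, adjusted p = 0.294), again among the brightest signals on the arrays. The cytokine genes Il4, Il5, Il13 and Il25 were below the floor on all 10 arrays. Of 10 markers of eosinophils, basophils and mast cells 0 passed by limma (1 had an unadjusted p under 0.05); 8 were below the floor at both doses.

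**Figure D4:**
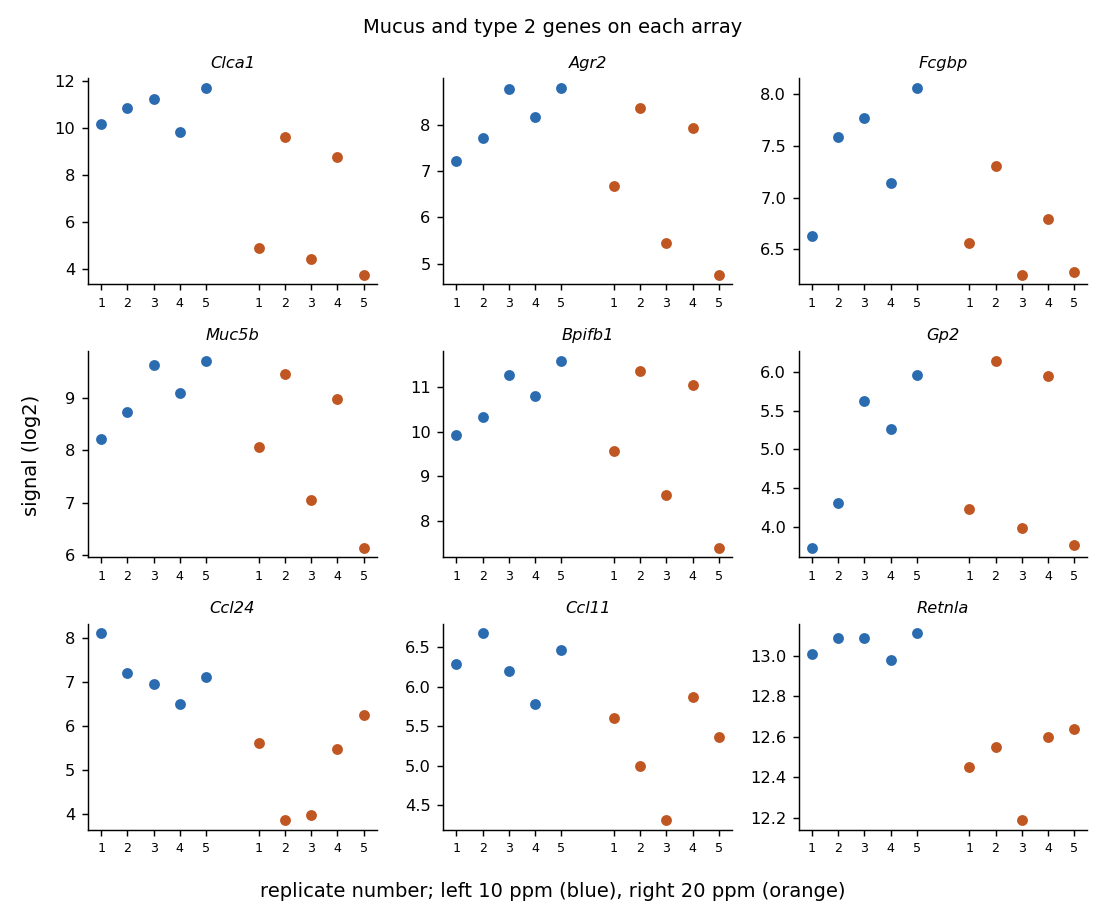
Log2 signal on each array, by replicate number, for 6 mucus and goblet cell genes and 3 type 2 genes, 10 ppm in blue and 20 ppm in orange; each panel has its own axis. Arrays 2 and 4 at 20 ppm are the high ones for Clca1 (9.59 and 8.75), Agr2, Muc5b, Bpifb1 and Gp2 but not for Ccl24 (3.85 and 5.48).

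Finally, Scin, which severs actin filaments, and Tnxb, a matrix glycoprotein, fell. Scin read 4.69, 5.12, 5.83, 4.38 and 5.43 at 10 ppm and 3.97, 4.35, 3.57, 3.89 and 3.83 at 20 ppm. All 10 arrays were below the floor, so no size is given, though the groups did not overlap and the call (adjusted p = 0.00220) held with each array left out; it was lost in the same fits of the 10 arrays alone (adjusted p up to 0.179). Tnxb read 7.41, 7.30, 7.47, 7.01 and 7.43 at 10 ppm and 6.99, 6.78, 6.46, 6.59 and 6.55 at 20 ppm. It fell by 0.65 (SE 0.12, adjusted p = 0.0173), with no overlap. Calls of the remaining genes were less steady with 1 of the 10 arrays left out at a time: Prkag3 held in 9 of 10 such fits (not without 20 ppm array 1), Smim4, Bex4, Sat1 and Tnxb in 3 each, Cgn, Sh3glb1 and Serpinh1 in 2 each, and Sdf2l1 in 1. Of 19 measured collagen and matrix genes 0 passed by limma (2 had an unadjusted p under 0.05); 16 differences were negative and the median was -0.18.

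At the other doses these genes followed several courses, given side by side because the comparisons share arrays. Means at 120 ppm come from the arrays that also differed in signal level and controls, which was not adjusted for. Prss22 had means of 3.98, 3.98, 4.59, 5.26, 7.24, 8.11 and 9.12 from air through 1, 5, 10, 20 and 40 to 120 ppm, and Tgm1 of 4.82, 4.84, 5.16, 5.99, 6.95, 7.11 and 7.77: from 1 ppm on the means stood in the order of dose, with the low ones below the floor. Hsph1 stood at 10.19, 10.37, 10.55, 10.98, 9.86, 9.22 and 7.98, highest at 10 ppm and below the air group from 20 ppm on. Cirbp was lowest at 10 ppm, at 7.39, 7.12, 7.12, 6.66, 7.82, 8.35 and 9.46. For Hsph1 and Cirbp, 10 ppm arrays 1 and 2 held the most extreme values. Between 5 ppm and 10 ppm the 2 genes differed by 0.43 and -0.46 without passing (limma adjusted p = 0.323 and 0.306). Both passed between 0 ppm and 10 ppm (limma adjusted p = 0.0110 and 0.0271). Ccl24 was at 4.16, 4.05, 4.16, 7.18, 5.03, 4.05 and 4.06, and Clca1 at 4.70, 4.09, 6.72, 10.75, 6.29, 4.40 and 4.27, both highest at 10 ppm. Of the 11 genes that rose, 5 had a higher mean at 10 ppm than at 0 ppm and 6 a lower one; of the 8 that fell, 7 had a higher mean at 10 ppm. The mean at 40 ppm was above that at 10 ppm for 11 of the 11 and for 0 of the 8, a split that the choice of genes by their 10 ppm arrays favours. It lay above that at 20 ppm for 9 of the 11 and below it for 6 of the 8. All these counts reuse arrays by which the genes were chosen, so they are no separate evidence of a course over dose.

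**Figure D5:**
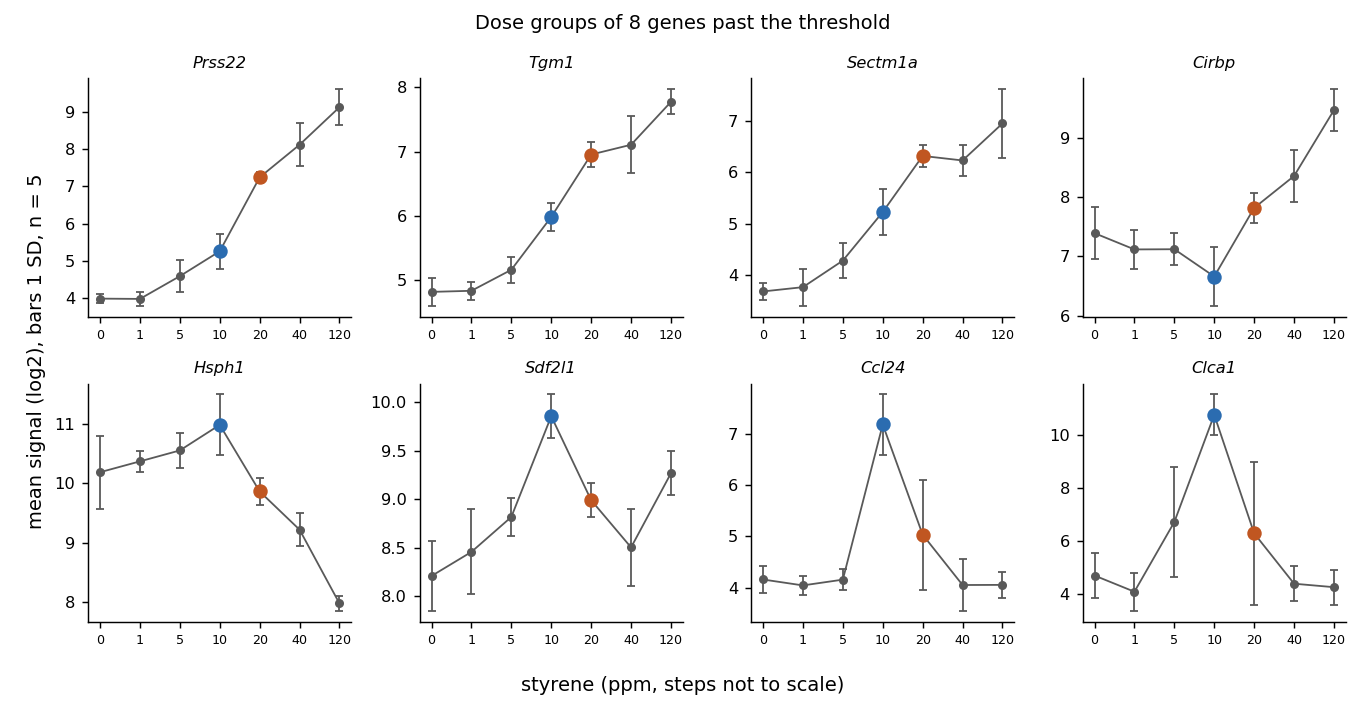
Mean log2 signal with 1 SD (n = 5) in the 7 dose groups for 8 genes past the threshold, with 10 ppm in blue and 20 ppm in orange; doses are evenly spaced and each panel has its own axis. Prss22 and Tgm1 climb across 10 and 20 ppm, while Ccl24 (7.18) and Clca1 (10.75) peak at 10 ppm. Hsph1 has its highest mean and Cirbp its lowest at 10 ppm, though neither passed by limma between 5 ppm and 10 ppm.

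Genes called between other doses in the same fit were also followed. Over all genes 53.99% had a positive difference and 0.0643% rose and 0.0468% fell. Of 194 genes higher at 5 ppm than at 0 ppm by limma (1.13% of genes), 0 passed between 10 ppm and 20 ppm by limma (5 higher and 34 lower had an unadjusted p under 0.05), 21.6% had a positive difference and the median was -0.17. Of 1315 genes higher at 40 ppm than at 0 ppm (7.69%), 8 rose and 0 fell, 72.3% had a positive difference and the median was 0.09. Of 862 lower at 40 ppm (5.04%), 1 rose and 4 fell, with a median of -0.07. The means behind those sets hold no 10 ppm or 20 ppm array, but these arrays enter the shared spread, and the sets share the 0 ppm arrays.

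Interferon-stimulated genes stood well above air at both doses and did not pass between them. Of 13 measured genes 0 passed by limma (1 had an unadjusted p under 0.05), 13 differences were negative and the median was -0.33; medians over air were 3.63 at 10 ppm and 3.28 at 20 ppm. The mean over the list was 9.51 and 9.32 on 20 ppm arrays 2 and 4 and 8.58 to 8.90 on the other 3, against 8.93 to 9.75 at 10 ppm, and without those 2 arrays the median difference was -0.53. Mx1, an antiviral GTPase, read 8.58, 8.999, 8.61, 7.85 and 8.74 at 10 ppm and 7.89, 8.81, 7.70, 8.71 and 7.39 at 20 ppm. Its groups overlapped and the interval was -0.99 to 0.08. Cxcl10, which draws T cells, differed by -0.41 (interval -1.20 to 0.38), Oas2 by -0.74 (SE 0.30, adjusted p = 0.625), Oasl1 by -0.24 and Ifit1 by -0.26 (interval -0.88 to 0.36). Outside the list, and chosen after their values were seen, the interferon-induced Oas1b (-0.46, SE 0.11, adjusted p = 0.0719) and Rnf213 (-0.57, SE 0.14, adjusted p = 0.0810) passed by limma without the 120 ppm arrays (adjusted p = 0.0445 and 0.0325), both lower. Values of the listed genes neither call a difference nor bound it within 1.5-fold, except for 1 of the 13 genes. Of 12 T cell attracting and interferon-gamma genes 0 passed (2 at an unadjusted p under 0.05) and 12 were negative. Ciita, the switch of MHC class II genes, differed by -0.75 (SE 0.21, limma adjusted p = 0.248) without overlap. Its means, 5.87 at 10 ppm and 5.13 at 20 ppm, lay under the mean floor of 6.06. Dimmer probe sets of Ciita differed by -0.42 and -0.06. Of 11 MHC class I and immunoproteasome genes 0 passed (4 at that unadjusted p), with a median of -0.17, and of 10 class II genes 0 passed (5 at that unadjusted p), with a median of -0.23.

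Genes of cell division did not pass. Of 29 mitosis genes 0 passed by limma (5 had an unadjusted p under 0.05), 27 differences were positive and the median was 0.23; 15 of them were below the floor at both doses. Bub1b, of the spindle checkpoint, ranged from 5.09 to 5.55 at 10 ppm and from 5.57 to 6.15 at 20 ppm, a difference of 0.45 (SE 0.19, adjusted p = 0.648). Of 27 DNA replication genes 0 passed (0 at that unadjusted p), 13 were positive, the median was -0.03 and the interval lay within 1.5-fold for 25; Tk1, the thymidine kinase of dividing cells, differed by 0.34 (interval -0.06 to 0.74). The test of one phase against the other was not made.

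Most immediate early genes had higher means at 20 ppm without passing. Of 15 immediate early genes 0 passed by limma (6 had an unadjusted p under 0.05, as did 6.26% of all genes). Of the 15, 13 were positive and the median was 0.34. Myc and Egr1 did not overlap, both higher (1.63% of all genes were higher in this way). Egr1 read 8.29, 8.71, 8.40, 8.74 and 9.04 at 10 ppm and 9.41, 9.09, 9.13, 9.13 and 9.46 at 20 ppm, a difference of 0.61 (SE 0.19, adjusted p = 0.367). Hbegf, a growth factor that binds the EGF receptor, read 9.10, 9.81, 9.93, 10.24 and 9.85 against 10.37, 10.52, 10.91, 10.40 and 10.99. It did not overlap, at 0.85 (SE 0.20, adjusted p = 0.0719), and passed without the 120 ppm arrays (limma adjusted p = 0.0445). Hbegf had the largest difference of 9 measured EGF receptor genes, of which 0 passed and 8 were positive. Their median was 0.07, and for 7 of the 9 the interval lay within 1.5-fold. Of 16 measured sterol synthesis genes 0 passed (3 at that unadjusted p) and 14 were positive, with a median of 0.17; Lss, lanosterol synthase, differed by 0.56 (SE 0.20, adjusted p = 0.502) without overlap.

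Genes that handle styrene and its products did not pass, and for many the data bound little. Cyp2f2 read 12.63 to 12.79 at 10 ppm and 12.43 to 12.78 at 20 ppm, a difference of -0.12 (interval -0.28 to 0.04). Cyp2e1, the other enzyme known to oxidise styrene, scattered from 5.25 to 9.38 and from 5.43 to 9.34, and its interval of -2.09 to 1.17 bounds little. Sult1a1, a sulfotransferase, did not overlap, at 0.59 (SE 0.16, adjusted p = 0.237). Of 21 glutathione and NRF2 target genes 0 passed by limma (1 had an unadjusted p under 0.05) and the interval lay within 1.5-fold for 19, and of 24 xenobiotic metabolism genes 0 passed (2 higher and 2 lower at that unadjusted p), with 13 within it. Cyp1a1 differed by -0.74 (SE 0.36, limma adjusted p = 0.786) and Acaa1b, of peroxisomal fatty acid oxidation, by 0.82 (SE 0.23, adjusted p = 0.259). The means of Cyp1a1 (5.82 and 5.07) and Acaa1b (5.12 and 5.94) lay under the mean floor of 6.06, so neither difference is a firm size. Pon1 differed by 0.26 (interval -0.08 to 0.60).

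Of 192 measured markers in 24 cell type lists, 0 passed by limma; 7 were higher and 10 lower at an unadjusted p under 0.05. For the alveolar type 1 and type 2 lists the interval lay within 1.5-fold for 9 of 9 markers each, and for endothelial cells for 11 of 12. Of the 12 endothelial markers 4 were lower at that unadjusted p, with a list median of -0.13. Club cell markers had 7 of 8 negative differences, with a median of -0.17. Of these 8, 2 were lower without overlap (1.06% of all genes were) and 2 were lower at that unadjusted p. All 7 mesothelial markers were positive, with a median of 0.45; Upk1b, the 1 that did not overlap, read 8.24 to 8.63 at 10 ppm and 8.66 to 9.19 at 20 ppm (0.53, SE 0.18, adjusted p = 0.474; 0.0328 by limma without the 120 ppm arrays, the 1 marker called there). The dendritic cell marker Cd209a read 7.76, 7.40, 7.37, 7.13 and 7.26 against 6.804, 6.81, 6.34, 6.55 and 6.57, a difference of -0.77 (SE 0.20, adjusted p = 0.167). This was the most negative of 6 dendritic cell markers, which had a median of -0.15. Of the 6, 2 were positive, and 3 were below the floor at both doses. Hepatocyte markers had a median of 0.90, with 13 of 14 positive, and 0.04 with 10 of 14 without 20 ppm array 2. S100a8 had the largest difference of 8 neutrophil markers, 0.75 (interval -0.18 to 1.68). Those 8 had a median of 0.08, with 6 positive and 2 negative, and 6 were below the floor at both doses. Adipocyte markers, measured by 4 genes, had a median of -0.70.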

How the data were processed

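Per the labels' protocols, total RNA of whole lung was labelled with a 3' IVT kit and hybridised to 35 arrays, 1 per sample. What the authors deposited is 1 log2 signal per probe set and array; per the submitters' processing notes RMA and Partek were used, without versions; the background step and scan batches are not stated there. Of 45141 probe sets, 104 were controls; of the rest 28898 had exactly 1 gene symbol, 551 several and 15588 none listed.

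Genes were fitted with limma 3.58.1 in R 4.3.3 (lmFit, eBayes; 28 residual and 4.62 prior degrees of freedom), with 1 mean per dose over all 35 arrays and Benjamini-Hochberg adjustment over 17097 genes, threshold 0.05; all tests were two-sided. "Rose" and "fell" mean past it; no overlap means that all 5 arrays of one dose lay beyond the other. Figures and sequence searches used Python 3.11.15, numpy 2.4.6, pandas 2.3.3 and matplotlib 3.10.9, and the R steps data.table (version 1.17.8). The calling step was tested on simulated data.

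The members, 28 pathway and 24 cell type lists and the naming rule (genes past the threshold by size, smallest p overall and per list, 3 styrene and club cell genes, and the largest changes at 10 ppm against 0 ppm) were chosen with earlier results of these data known, and 5 further lists after the values were seen. Genes outside this rule are named as examples of their list. No depth lies behind array values; the number of arrays limits their precision.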

Additional observations from a re-analysis of the deposited data

Results flagged for a closer look

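The lowest or highest of 5 arrays stood far from the other 4, by Dixon's ratio at its 95% critical value of 0.71, in 8 of 148 groups examined (74 named genes at 2 doses), where chance flags about 1 in 20. At 20 ppm, Sdf2l1 read 8.68 on array 4 (nearest other array 9.04) and Sat1 10.996 on array 4 (10.88). Array 2 at 20 ppm was low for Sh3glb1 at 7.89 (8.02), for the T cell marker Cd4 at 4.45 (4.84) and for the haemoglobin gene Hba-a1 at 13.70 (13.77). The basal cell marker Trp63 read 3.37 on 20 ppm array 3 (3.70), below the floor throughout. At 10 ppm, the surfactant gene Sftpd was low on array 1, at 12.80 (12.90), and Upk1b high on array 4, at 8.63 (8.35).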

How the results depend on the processing

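Of 19 genes called, all 11 higher and 8 lower kept their direction under every alternative tried. Counts moved by over 1.5 times as follows (total, higher, lower): 34, 20 and 14 with dim genes left out, 41, 25 and 16 at an adjusted p under 0.1, 208, 127 and 81 with array weights, and 72, 44 and 28 without the 120 ppm arrays. A fold of at least 1.5 left 7 higher, adjusting for the poly-A controls gave 19 higher, and testing every probe set gave 16 lower. Leaving out single arrays gave 5 to 37 genes (2 to 22 higher, 2 to 15 lower). The next pair of alternatives was added after seeing the data: without 10 ppm arrays 1 and 2 there were 4 genes (2 and 2), and without 20 ppm arrays 2 and 4 there were 9 (4 and 5). The 10 arrays alone called 20 genes, of which 5 were shared with the 19 (Prss22, Tgm1, Prkag3, Syt8 and Sdf2l1). Calls of the other genes, Hsph1, Ahsa2, Serpinh1, Cirbp and Cgn among them, were lost there.

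Replicate numbers did not pair the arrays: same-numbered arrays correlated at -0.18 to 0.14, over 0.1 in 1 of 5 pairs, and 1 of 5 pairs matched best with its own number. The replicate block gave 24 genes over all arrays and 5 (3 higher, 2 lower) over the 10 arrays.

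Some differences near 0 changed sign: Trp63 (leave-one-out range -0.10 to 0.013) to 0.013 without 10 ppm replicate 2 or 20 ppm replicate 3 and to 0.023 without 10 ppm arrays 1 and 2, Hba-a1 to 0.0014 after repeated quantile normalization, Myh1 to 0.029 on the mean of probe sets, Cyp2e1 (-1.09 to 0.0036) to 0.0036 without 20 ppm replicate 5, and Asgr1 (-0.13 to 0.21) to -0.13 without 20 ppm replicate 2 and -0.073 without 20 ppm arrays 2 and 4. The causes were not tested. Signal over background limits Scin, Ccl24, Clca1, Prss22, Sectm1a, Prkag3 and Syt8. Among genes that did not pass in the main fit, it also limits Ccl11, Ciita, Cyp1a1, Acaa1b and others.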

Other observations

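Other groups not yet described also held few differences. Of 15 ribosome biogenesis genes 0 passed by limma (3 had an unadjusted p under 0.05) and 11 were positive (median 0.14). Of 15 fatty acid oxidation genes 14 were positive (median 0.16). Without 10 ppm arrays 1 and 2, 10 of these 15 were positive (median 0.05). Of 13 glycolysis genes 12 had intervals within 1.5-fold; Hk2, a hexokinase, differed by 0.39 (SE 0.15, limma adjusted p = 0.568). Of 17 circadian genes 0 passed (1 at that unadjusted p), and the clock repressor Cry2 differed by 0.29 (SE 0.11, adjusted p = 0.597). Of 14 p53 targets 0 passed (2 at that unadjusted p), and Gadd45a did not overlap (0.40, SE 0.13, adjusted p = 0.380). Of 8 IGF genes the binding protein Igfbp3 had the smallest p, at -0.62 (SE 0.19, adjusted p = 0.348).

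Beyond the 19 genes, the fit without the 120 ppm arrays called Tnfrsf12a, a receptor induced in injured tissue (0.84, SE 0.19, limma adjusted p = 0.0445), Spry4, a brake on growth factor signalling (0.70, SE 0.16, 0.0445), Epha2, an epithelial receptor kinase (0.68, SE 0.14, 0.0240), and the eosinophil-associated ribonuclease Rnase2a (-0.80, SE 0.17, 0.0315), which was below the floor on all 10 arrays. These were chosen after their values were seen. Among 15588 probe sets listed with no gene, tested apart, 2 were higher and 9 lower by limma; 992 had an unadjusted p under 0.05.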
